A study of Mus musculus with 45 samples.

Results

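The proteasome is described here by 49 of the 18193 genes that the array annotation names singly, those whose mouse gene symbol runs from Psma to Psmg followed by a number. A probe set belonged to a gene when the array annotation gave it that symbol and no other. Of 45037 probe sets on the array 103 did so, and where a gene had several, the one of highest average level across the 45 arrays stood for it. The 49 genes comprise 14 subunits of the core particle (Psma1 to Psma7 and Psmb1 to Psmb7), 3 immunoproteasome subunits (Psmb8, Psmb9 and Psmb10), 2 core subunits known from testis and thymus (Psma8 and Psmb11), 17 subunits of the cap, 3 activators (Psme1, Psme3 and Psme4), 7 assembly factors, the regulator Psmf1, and 2 genes that share the naming pattern without being subunits (Psmc3ip and Psme3ip1). The activator subunit Psme2 is not among them, because its 1 probe set is annotated to a further gene as well.

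Adipocyte RNA from parametrial and periovarian fat of 45 female C57BL/6 mice was hybridized to 1 array per mouse, and values are log2 RMA values. D mice were IR+/- IRS1+/- ApoE-/-, that is, heterozygous for the insulin receptor and for IRS1, and E mice were ApoE-/-, so that all 45 mice lacked ApoE. From 8 weeks of age they received a Western diet for 8 weeks (DW8, n = 5; EW8, n = 6) or 16 weeks (DW16, n = 9; EW16, n = 8), or a chow diet for the same times (DC8, n = 7; DC16, n = 5; EC16, n = 5), and were thus 16 or 24 weeks old. The 45 arrays hold no E mice on chow for 8 weeks, so the diet difference at 8 weeks is given for D mice only. Differences below are log2 differences of group means with their SE, and levels are mean ± SD on the log2 scale. A gene was called changed when its adjusted p, over all probe sets, was under 0.01.

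The proteasome degrades proteins that carry ubiquitin chains. Its core particle is a stack of rings of alpha subunits (Psma genes) and beta subunits (Psmb genes), and the beta subunits Psmb5, Psmb6 and Psmb7 hold the catalytic sites. The cap binds and unfolds the substrate with a ring of ATPases (Psmc genes) and further base and lid subunits (Psmd genes). Under interferon, and in immune cells, Psmb8, Psmb9 and Psmb10 take the places of Psmb5, Psmb6 and Psmb7 and form the immunoproteasome, which cuts peptides for presentation on MHC class I molecules. In adipocytes the proteasome takes part in the turnover of proteins of insulin signalling and of lipid droplets.

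The arrays did not all span the same range. In 10 of the 45, DW16 mice 1 to 7 and EW16 mice 1 to 3, the 95th percentile of the log2 values was 10.14 to 10.85 and the SD 2.11 to 2.35, against 10.95 to 11.14 and 2.39 to 2.53 in the other 35. These narrow-range arrays are the 10 with the lowest 95th percentile. They were set apart after the values had been seen, and no source names a batch for them. No chow array and no array of 8 weeks is among them. High values are lower on them: of the 2671 probe sets at or above the members' median level of 10.64, 83.8% had a lower mean in DW16 than in DC16 and 78.1% a lower mean in EW16 than in EC16, against 50.6% in DW8 relative to DC8. The adipocyte markers adiponectin (Adipoq) and Fabp4 averaged 14.42 and 14.59 over all arrays, and the transcripts of the insulin receptor (Insr) averaged 9.29 in DC16 and 10.17 in EC16 mice. Fewer cells of a type and less RNA per cell cannot be told apart in such bulk samples.

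Of the 49 genes 2 passed the test after a diet, both lower in EW16 than in EC16 mice: the alpha subunit Psma4 and the beta subunit Psmb1. Among all probe sets 2.66% were called in that comparison in either direction and 2.39% as lower. At an unadjusted p under 0.05 the members counted 28 (27.7% of all probe sets), 25 of them lower (15.1%), and at an adjusted p under 0.05 they counted 13, each lower (7.16%). In DW16 relative to DC16 no member was called, where 3.43% of all probe sets were and 2.63% as lower. There 21 members had an unadjusted p under 0.05 (37.9% of all probe sets), 20 of them lower (20.7%), and 10 had an adjusted p under 0.05, each lower (13.7%). In DW8 relative to DC8 no member was called either (1.08% of all probe sets), 12 had an unadjusted p under 0.05 (19.1%), 11 of them lower (9.78%), and 1 had an adjusted p under 0.05 and was lower (1.64%).

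The means of 41 of the 49 genes were lower in EW16 than in EC16, of 42 in DW16 than in DC16 and of 33 in DW8 than in DC8, against 41.1%, 44.6% and 55% of all probe sets. The median differences of the members were −0.34, −0.27 and −0.07. Over all probe sets the medians were 0.06, 0.04 and −0.02, and over probe sets at or above the members' median level −0.29, −0.46 and 0.00. The members' medians at 16 weeks were thus below 0, as were those of these high-level probe sets. The members themselves had levels down to 4.28, so the sets are not matched in level and their medians cannot be ranked. After a further quantile normalization over the arrays the members' DW16 median turned to 0.03, with 21 of 49 means lower (47.2% of all probe sets). That in EW16 was −0.10, with 33 lower (45.4%). No member in DW16 and 2 in EW16 were called, where 3.21% and 2.64% of all probe sets were. By parts, the core, cap and immunoproteasome medians were then −0.05, −0.09 and −0.34 in EW16 and 0.13, −0.01 and 0.29 in DW16.

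**Figure D1:**
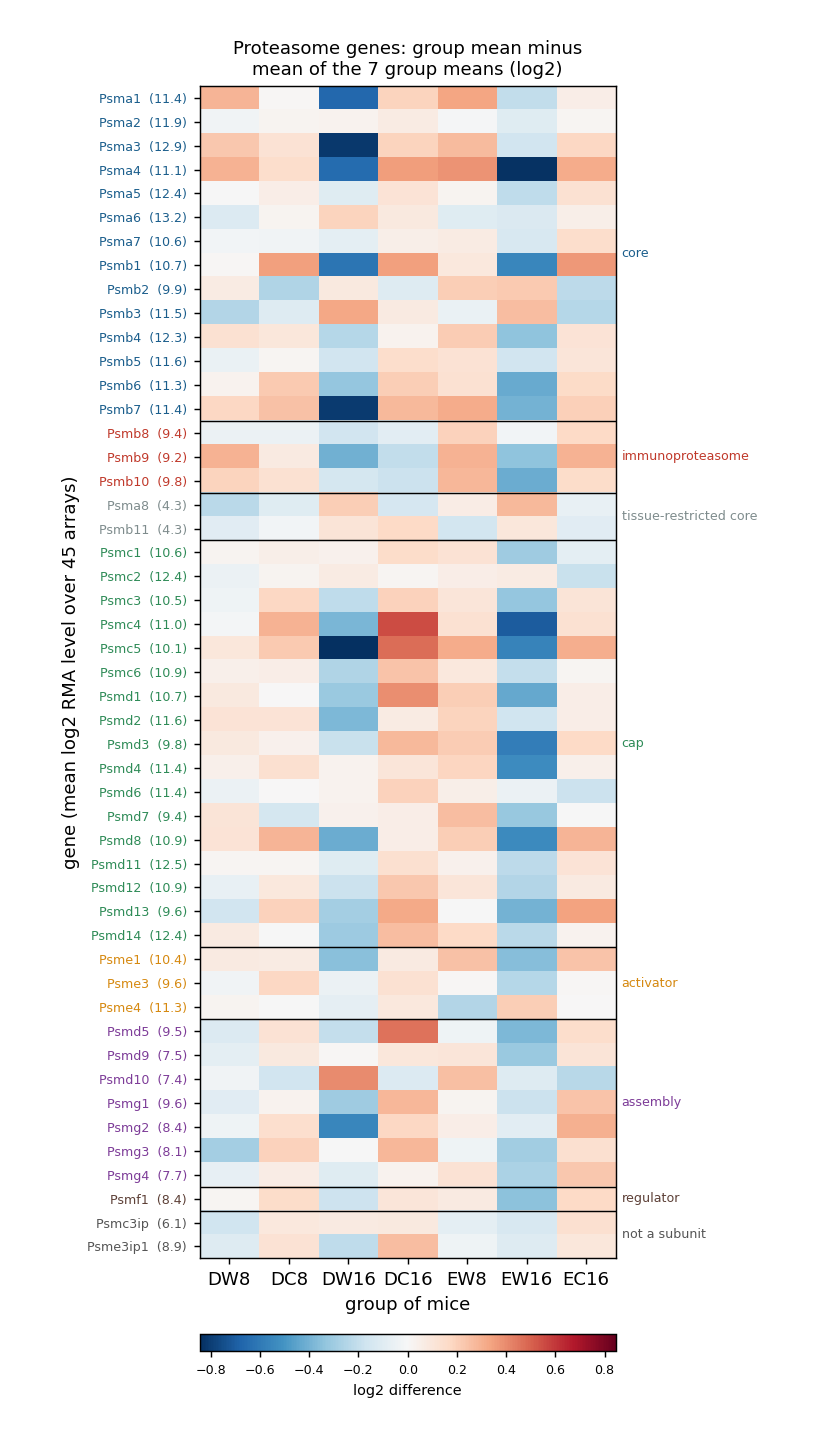
Group means of the 49 genes, each minus the mean of the gene's 7 group means, in log2 units (colour), by group (columns) and gene (rows, grouped by part, with the mean log2 RMA level over 45 arrays in brackets). DW16 and EW16 hold the lowest means of Psma4, Psmb1 and Psmc5, whereas Psmb2 and Psmb3 are not low there.

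In the core particle the means of 12 of 14 subunits were lower in EW16 than in EC16, with a median of −0.31. Psma4 (probe set 1460339_at, chromosome 9), a subunit of the outer alpha ring, ran from 9.89 to 11.59 with a median of 10.27 in EW16 mice, against 11.64, 11.50, 11.61, 11.61 and 11.26 in EC16 mice. EW16 mouse 4 alone reached the chow range, and the next highest EW16 mouse had 10.43. The mean was 10.37 ± 0.52 in EW16 (n = 8) and 11.52 ± 0.16 in EC16 (n = 5), a difference of −1.15 (SE 0.22, adjusted p = 0.00783). Psmb1 (1448166_a_at, chromosome 17), a beta subunit without catalytic activity, ran from 9.67 to 10.88 with a median of 10.18 in EW16 mice, against 11.20, 10.97, 11.23, 11.20 and 10.94 in EC16 mice. These groups did not overlap, as in 3.39% of all probe sets with lower values in EW16, and their means were 10.19 ± 0.41 and 11.11 ± 0.14 (difference −0.91, SE 0.18, adjusted p = 0.00836). Both calls lay close to the threshold. With 1 of the 13 mice left out, each was lost in 12 cases and kept in 1, that without EW16 mouse 4. The adjusted p-values rose to at most 0.0265 for Psma4 and 0.0292 for Psmb1. In those 12 cases 0.0844% to 2.21% of all probe sets were called. Over the 13 cases the differences ran from −1.33 to −1.08 for Psma4 and from −1.01 to −0.84 for Psmb1.

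Both genes also had lower means on arrays of the usual range in E mice. Without the 3 narrow-range arrays, Psma4 differed by −1.03 between EW16 (mice 4 to 8) and EC16 (SE 0.24, adjusted p = 0.0135) and Psmb1 by −0.68 (SE 0.14, adjusted p = 0.00652), so that Psmb1 kept its call and Psma4 did not. In that comparison 3 members were called, where 7.02% of all probe sets were (3.95% lower and 3.07% higher). Of the 49 means 38 were lower with a median of −0.26, against −0.04 for probe sets at or above the members' median level. The other calls were Psmb2, higher, and Psmg3, lower. Psmb2 (1448262_at, chromosome 4), a beta subunit, had 10.01, 10.30, 10.33, 10.28 and 10.48 in EW16 mice 4 to 8, against 9.73, 9.50, 9.57, 9.77 and 9.52 in EC16 mice, which do not overlap, as in 5.37% of all probe sets with higher values in these EW16 mice (difference 0.66, SE 0.10, adjusted p = 0.00236). The narrow-range EW16 mice 1 to 3 had 9.82, 9.71 and 9.56 and lay within or next to the chow range, and with them the difference was 0.44 (SE 0.15, adjusted p = 0.0818). Psmb3, also of the beta ring, had differences of 0.60 without the narrow-range arrays (SE 0.15, adjusted p = 0.0177) and 0.50 with them (adjusted p = 0.0559). Its other probe set (1417052_at) differed by 0.11 with all arrays (adjusted p = 0.568). Psmb2 and Psmb3 were the core subunits with higher means in EW16 than in EC16, and the other 12 had lower ones.

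**Figure D2:**
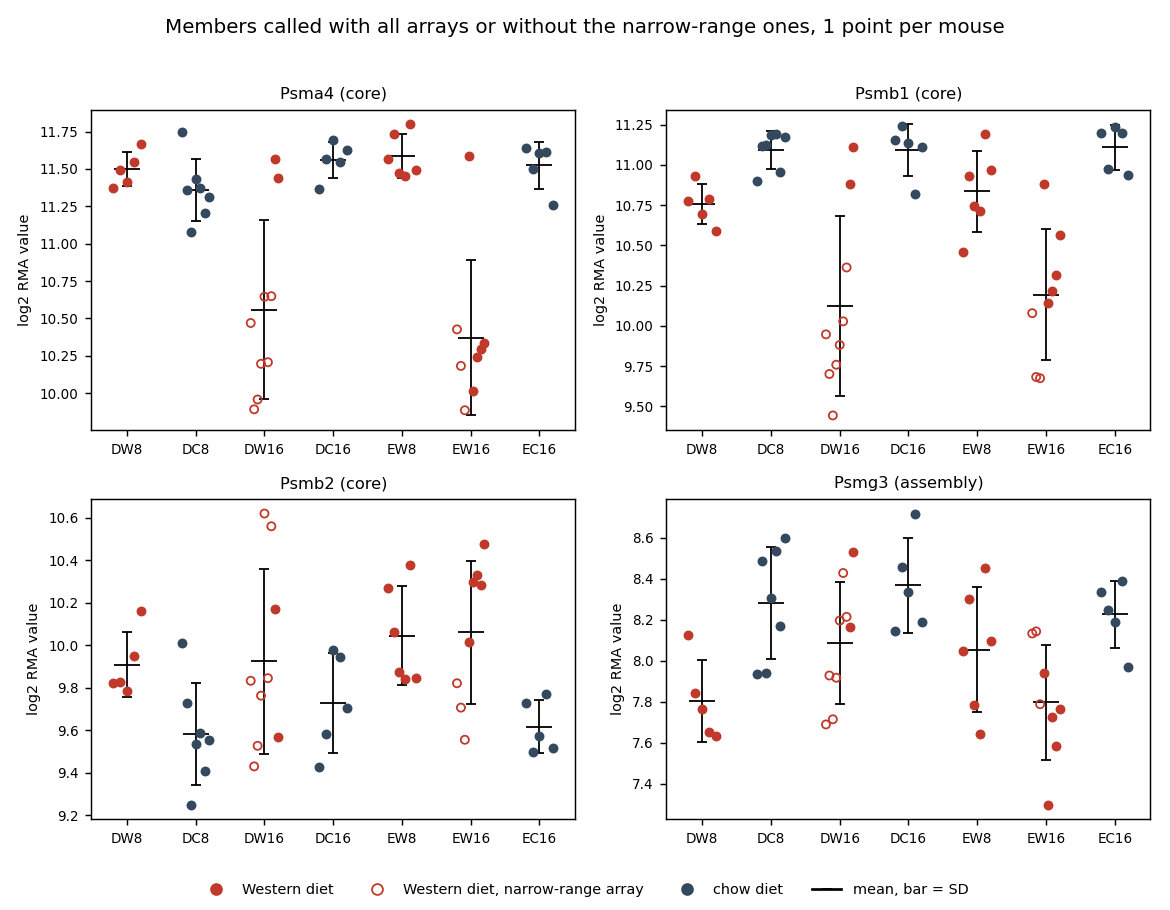
log2 RMA values (vertical axes) of Psma4, Psmb1, Psmb2 and Psmg3 in every mouse by group, with mean and SD; red is Western diet, dark blue is chow, and open circles are narrow-range arrays. In EW16 the filled circles of Psma4 other than mouse 4, and all those of Psmb1, lie below all EC16 mice, and those of Psmb2 above them.

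In D mice the low core values of DW16 were those of the narrow-range arrays. Psma4 ran from 9.89 to 11.56 in DW16 mice with a median of 10.47, against 11.37, 11.56, 11.70, 11.55 and 11.63 in DC16 mice (difference −1.0, SE 0.25, adjusted p = 0.0157). DW16 mice 8 and 9, on arrays of the usual range, had 11.56 and 11.44 and lay within the chow range, whereas mice 1 to 7 had 10.65 or less. Psmb1 had 10.88 and 11.11 in DW16 mice 8 and 9 and 9.44 to 10.36 in mice 1 to 7, against 11.16, 11.24, 11.13, 10.82 and 11.11 in DC16 mice (difference −0.97, SE 0.24, adjusted p = 0.0145). Psmb7, the subunit with trypsin-like activity, spanned the widest range: 9.51 to 11.05 in DW16 mice 1 to 7 and 11.92 and 12.08 in mice 8 and 9, against 11.79, 11.88, 11.90, 11.35 and 11.83 in DC16 mice (difference −1.08, SE 0.39, adjusted p = 0.0563). Without the narrow-range arrays 2 DW16 mice remained against 5 DC16 mice. No member was then called, nor was any other probe set, 2 members had an unadjusted p under 0.05 (7.69% of all probe sets), and the median over members was −0.01. Those 2 mice apart, long Western diet feeding and narrow range cannot be told apart in D mice. Over all 49 genes the narrow-range arrays had the lower mean in 40 genes within DW16 (median −0.42) and in 37 within EW16 (median −0.27).

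After 8 weeks, with no narrow-range array, Psmb1 was the member with the smallest adjusted p. It had 10.78, 10.93, 10.70, 10.79 and 10.59 in DW8 mice, and 10.90 to 11.19 with a median of 11.13 in DC8 mice (difference −0.34, SE 0.08, adjusted p = 0.0258). Only DW8 mouse 2 lay above the lowest DC8 mouse, and the call was not reached at 0.01. Psma4 was 11.38 to 11.67 in DW8 and 11.08 to 11.75 in DC8 mice, a difference of 0.14 (SE 0.10, adjusted p = 0.506). The diet difference of Psma4 at 16 weeks minus that at 8 weeks was −1.14 in D mice (SE 0.29, adjusted p = 0.0296), the smallest adjusted p of any member in that comparison, in which no member was called, against 0.00444% of all probe sets, and 14 had an unadjusted p under 0.05 (27.7% of all). Without the narrow-range arrays no member had an adjusted p under 0.05 in it.

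The stretch of 250 bases before the RefSeq start of Psma4 (GRCm38.p6, plus strand, chr9:54950609-54950858) is given here because this gene had the largest called difference. Capitals mark every match, on either strand, to any of 10 short motifs that were searched.
Psma4: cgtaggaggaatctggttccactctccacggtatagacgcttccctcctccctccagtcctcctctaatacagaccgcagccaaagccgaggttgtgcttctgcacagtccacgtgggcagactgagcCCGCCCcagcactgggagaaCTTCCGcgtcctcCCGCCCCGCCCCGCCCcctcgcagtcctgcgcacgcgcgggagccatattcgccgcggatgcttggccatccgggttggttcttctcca
It held CGGAAG, the core of sites of ETS factors, once, and GGGCGG, the GC box of Sp factors, 4 times, 3 of these in an overlapping run that ends 74 bases before the start. Of the 49 genes 41 had a window in the RefSeq table, and 27025 genes had one in all. CGGAAG stood in 20 of the 41 (48.8%) and in 15.3% of all genes, TTCCGG, which can overlap it, in 18 (43.9%) and 13.6%, and GGGCGG in 22 (53.7%) and 35.4%. CCAAT stood in 16 (39%) and 37.5%, TATAAA in 4 (9.76%) and 14.3%, and TGACNNNGC, a form of the site of the NRF factors that induce proteasome genes, in 5 (12.2%: Psmb5, Psmb6, Psmc6, Psmd12 and Psmd9) and 11.5%. The interferon-stimulated response type stood in 3 members (Psmb3, Psmd4 and Psmd9), the STAT type TTCNNNGAA in 2, an NF-kB type in 1 and GGGGATTT, a part of such a site, in 0, against 3.46%, 8.13%, 1.65% and 0.962% of all genes. A match is a run of letters and was not tested for binding.

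Of the 17 cap subunits 16 had lower means in DW16 than in DC16 and 15 in EW16 than in EC16, with medians of −0.45 (−0.01 after quantile normalization again) and −0.34 (−0.09). None was called, and 3 and 5 of them had an adjusted p under 0.05. The ATPase Psmc5 had the largest difference of all members in D mice, with 8.33 to 10.69 and a median of 9.10 in DW16 mice, against 10.36, 10.62, 10.91, 10.52 and 10.69 in DC16 mice (−1.32, SE 0.34, adjusted p = 0.0171). DW16 mice 8 and 9, with 10.35 and 10.69, lay at or within the chow range. In E mice its difference was −0.87 (SE 0.33, adjusted p = 0.106) with all arrays and −0.34 (SE 0.14, adjusted p = 0.116) without the narrow-range ones. The ATPase Psmc4 behaved otherwise: its difference between EW16 and EC16 was −0.83 (SE 0.22, adjusted p = 0.0314) with all arrays and −0.91 (SE 0.25, adjusted p = 0.026) without the narrow-range ones, where EW16 mice 5 to 8 had 9.82 to 10.23 and EW16 mouse 4 had 11.29, against 10.67 to 11.59 in EC16 mice. The lid subunit Psmd3 and the ubiquitin receptor Psmd4 likewise had values as low on the usual arrays of E mice, with −0.81 (SE 0.20, adjusted p = 0.0156) and −0.72 (SE 0.18, adjusted p = 0.0195) without the narrow-range arrays. Of the 17 cap means 14 were lower in that comparison, and of the other 3 the ATPase Psmc2 differed most (0.37, SE 0.10, adjusted p = 0.0252). With all arrays Psmc2 differed by 0.26 in EW16 relative to EC16, and its other probe sets (1426611_at and 1443307_at) by −0.17 and −0.18. In the 8-week comparison 12 of 17 cap means were lower, and Psmc3, Psmc4, Psmd13 and Psmd8 had an unadjusted p under 0.05 with differences of −0.21, −0.31, −0.36 and −0.17 (adjusted p = 0.134 or more).

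**Figure D3:**
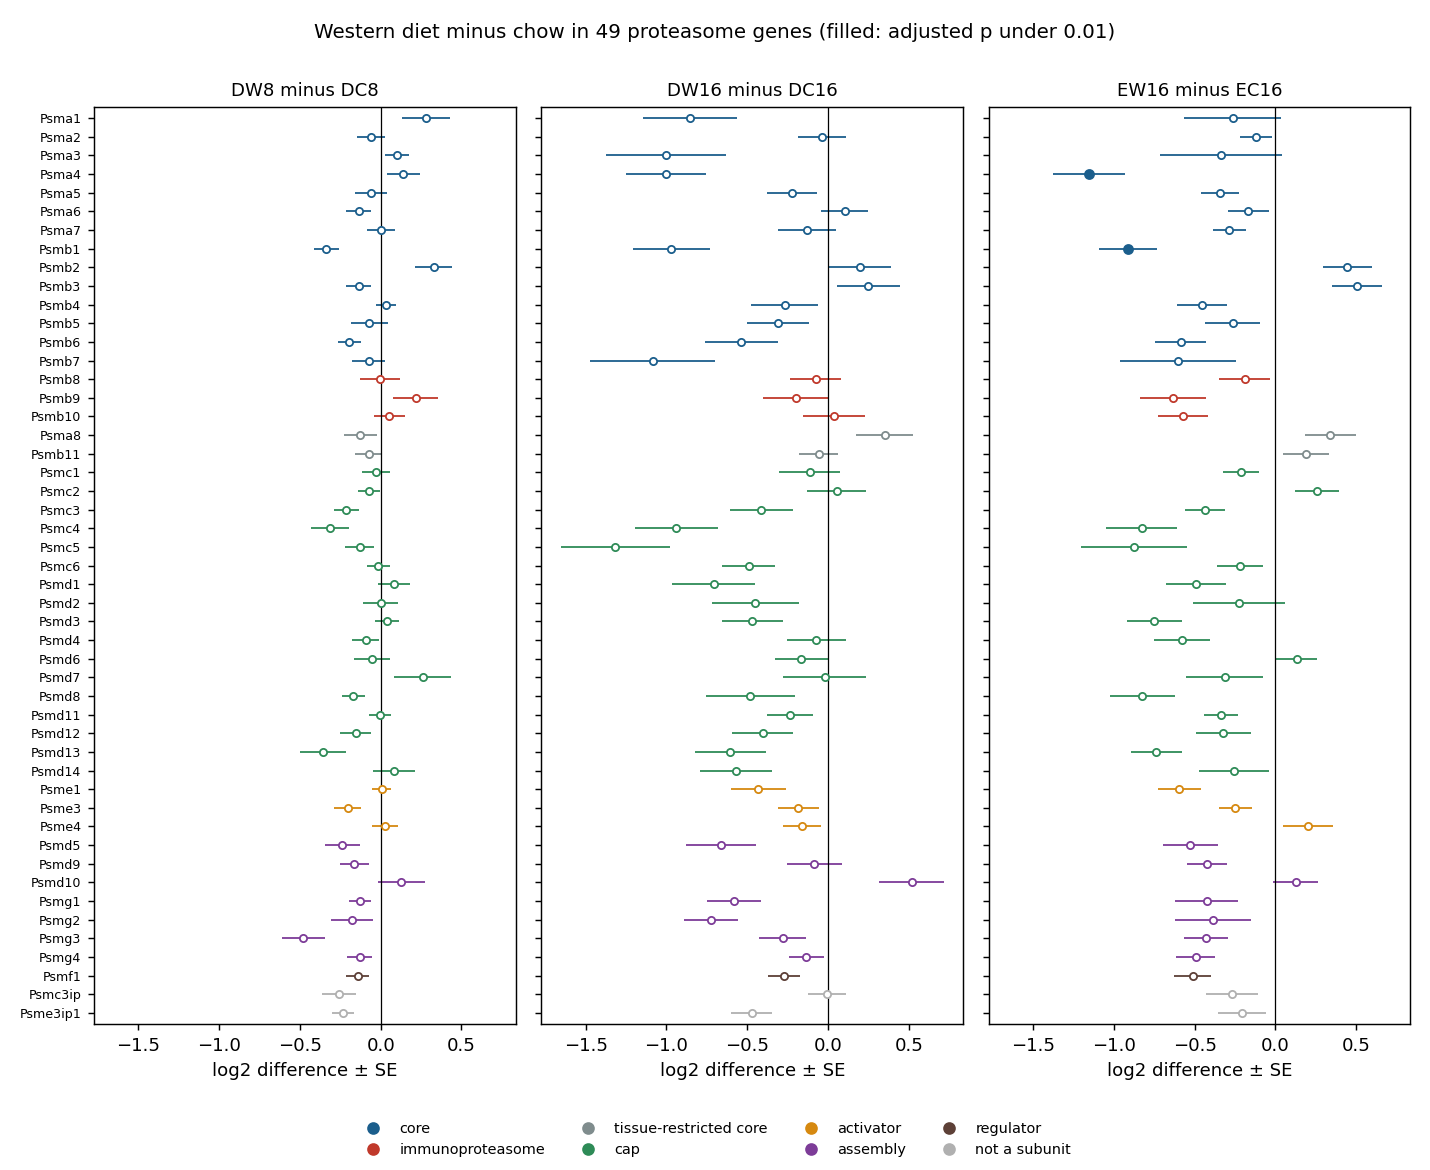
Western diet minus chow for each of the 49 genes (rows, coloured by part) in DW8, DW16 and EW16 mice, as log2 difference with SE (horizontal axes). Only Psma4 and Psmb1 in EW16 are filled, that is, have an adjusted p under 0.01, and most points at 16 weeks lie left of 0, which in DW16 held for 21 of 49 genes after quantile normalization again.

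**Figure D4:**
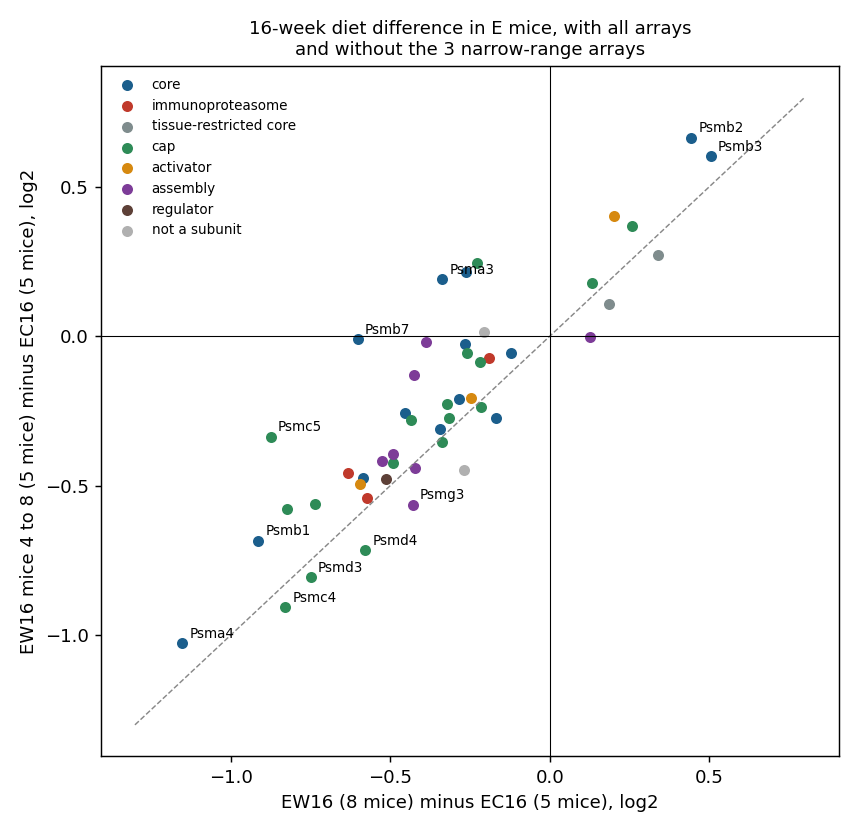
EW16 minus EC16 of each gene with all 8 EW16 mice (horizontal axis) and with EW16 mice 4 to 8 only (vertical axis), in log2 units; the dashed line marks equal values. Psma4, Psmc4, Psmd3 and Psmd4 lie near the line, and Psmb7 and Psma3 lie above it, with −0.01 and 0.19 without the narrow-range arrays.

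The mean of the immunoproteasome subunits was lowest in EW16, DW16 and DC16 mice, which for Psmb8 alone did not hold in EW16 (9.44, against 9.41 in DW8 and 9.42 in DC8). Psmb8 (1422962_a_at), Psmb9 (1450696_at) and Psmb10 (1448632_at) averaged 9.29 ± 0.40 together in DW16 and 9.37 ± 0.16 in DC16 mice, 9.27 ± 0.33 in EW16 and 9.73 ± 0.22 in EC16 mice, and 9.67 ± 0.11 in DW8 and 9.58 ± 0.26 in DC8 mice. None was called after a diet. Psmb10 ran from 9.11 to 10.14 with a median of 9.39 in EW16 mice, against 9.91, 10.37, 9.93, 9.90 and 9.86 in EC16 mice (difference −0.57, SE 0.15, adjusted p = 0.0331). All EW16 mice but mouse 4 lay below every EC16 mouse, on narrow-range and usual arrays alike, and without the narrow-range ones the difference was −0.54 (SE 0.18, adjusted p = 0.0517). Psmb9 ran from 8.51 to 9.90 with a median of 8.81 in EW16 mice, against 9.48, 10.00, 9.48, 9.44 and 9.48 in EC16 mice, again with mouse 4 as the only EW16 mouse in the chow range (difference −0.63, SE 0.20, adjusted p = 0.0684). Psmb8 overlapped, with 8.97 to 9.83 in EW16 and 9.55, 10.03, 9.63, 9.47 and 9.49 in EC16 mice (−0.19, SE 0.16, adjusted p = 0.435).

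In D mice the diet differences of these 3 genes at 16 weeks were −0.08 (Psmb8), −0.20 (Psmb9) and 0.04 (Psmb10) (SE 0.16, 0.20 and 0.19). Psmb9 ran from 8.24 to 9.60 with a median of 8.71 in DW16 mice, against 9.07, 8.95, 9.19, 8.72 and 9.42 in DC16 mice. Psmb10 ran from 9.18 to 10.59 with a median of 9.61 in DW16 mice, against 9.80, 9.76, 9.69, 9.26 and 9.79 in DC16 mice. Psmb8 ran from 8.90 to 9.99 with a median of 9.14 in DW16 mice, against 9.45, 9.27, 9.27, 9.39 and 9.49 in DC16 mice. DW16 mice 8 and 9 had 9.33 and 9.60 for Psmb9, of which the second lay above all DC16 mice, and 10.00 and 10.59 for Psmb10, both above them. Without the narrow-range arrays, that is, with these 2 DW16 mice alone, the differences were 0.32 (Psmb8), 0.39 (Psmb9) and 0.64 (Psmb10), so that those of Psmb8 and Psmb9 turned (adjusted p = 0.549 or more for the 3 genes). The diet difference of Psmb10 was higher in D than in E mice by 0.61 (SE 0.26, adjusted p = 0.786), and no member was called in that comparison, nor was any other probe set (0%). Of the members 2 had an unadjusted p under 0.05 there (6.31% of all). At 8 weeks Psmb8, Psmb9 and Psmb10 differed by 0.00, 0.22 and 0.05 between DW8 and DC8 (adjusted p = 0.451 or more).

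On chow at 16 weeks the means of these genes were lower in D than in E mice, and none was called. The DC16 means were also below those of DC8 mice, at 9.42 (Psmb8), 9.36 (Psmb9) and 9.97 (Psmb10). In DW8 and EW8 mice the means were 9.57 and 9.57 for Psmb9, 10.03 and 10.12 for Psmb10, and 9.41 and 9.66 for Psmb8. Psmb9 had 9.07 ± 0.26 in DC16 and 9.57 ± 0.24 in EC16 mice (n = 5 each, difference −0.50, SE 0.14, adjusted p = 0.764), and Psmb10 9.66 ± 0.23 and 9.99 ± 0.21 (−0.34, SE 0.13, adjusted p = 0.787). Neither gene's groups overlapped, which held, with lower values in DC16, for 0.522% of all probe sets. Psmb8 differed by −0.26 (SE 0.11, adjusted p = 0.790). In that comparison 0.00222% of all probe sets were called, and of the 49 members 10 had an unadjusted p under 0.05 (6.27% of all), 6 of them with higher means in DC16. Macrophage markers moved the same way: the means of 8 of 8 were lower in DC16 than in EC16 by 0.02 to 0.39, none of them called, and their mean level was 8.89 to 9.89 in DC16 and 9.33 to 9.99 in EC16 mice. Fibroblast markers were lower in 5 of 5 (median −0.37, against −0.22 for the macrophage list), with a mean level of 10.57 to 11.26 in DC16 and 10.95 to 11.72 in EC16 mice, and mesothelial markers in 4 of 4, none of either called, with a mean level of 6.22 to 7.83 in DC16 and 7.20 to 8.30 in EC16 mice. The part of these markers in the difference was not tested. The lymphocyte markers were lower in 7 of 9, none called, and had a mean level of 5.88 to 6.18 in DC16 and 5.96 to 6.21 in EC16 mice, with Cd3e at 6.14 and 6.35 and Ms4a1 at 4.70 and 5.34, where the array medians were 5.51 to 5.67.

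**Figure D5:**
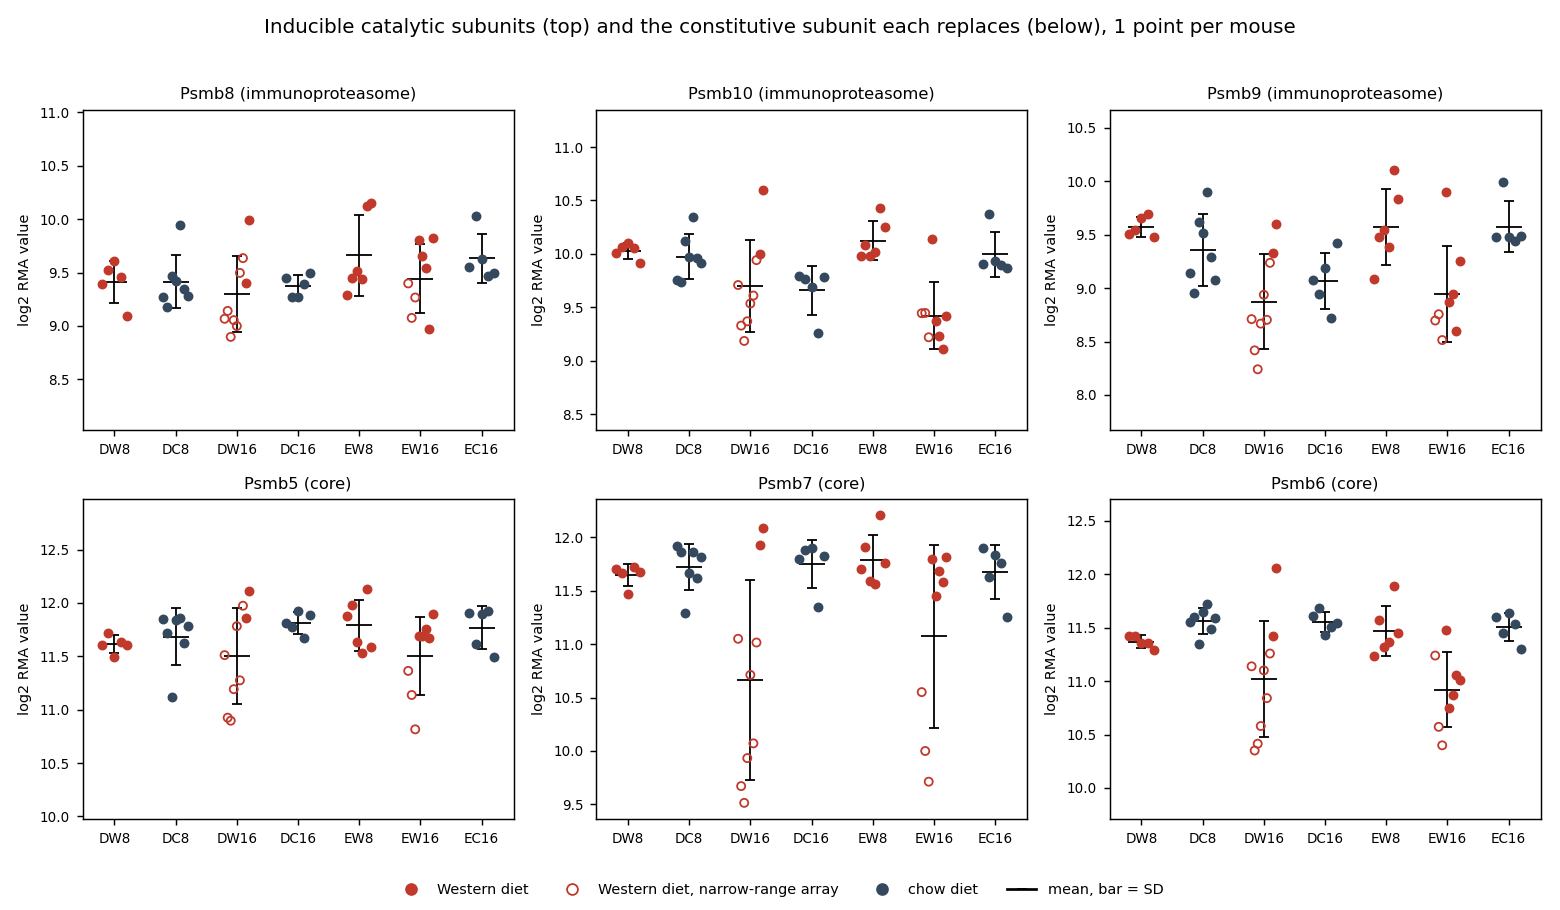
log2 RMA values (vertical axes, each spanning the same number of log2 units around its own middle) of Psmb8, Psmb10 and Psmb9 and, below each, of Psmb5, Psmb7 and Psmb6, the constitutive subunit that it replaces, for every mouse by group with mean and SD; open circles are narrow-range arrays. Psmb7 is lowest on the narrow-range arrays, and Psmb10 and Psmb9 are below every EC16 mouse in all EW16 mice but 1.

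Of the constitutive catalytic subunits, Psmb6, which Psmb9 replaces, differed by −0.59 between EW16 and EC16 (SE 0.16, adjusted p = 0.0341), with 10.40 to 11.48 and a median of 10.94 in EW16 mice against 11.60, 11.45, 11.64, 11.53 and 11.30 in EC16 mice. It was −0.48 without the narrow-range arrays (SE 0.13, adjusted p = 0.0231). Psmb5, which Psmb8 replaces, had 10.82 to 11.90 with a median of 11.68 in EW16 mice, against 11.90, 11.61, 11.89, 11.93 and 11.50 in EC16 mice (−0.26, SE 0.17, adjusted p = 0.317). Psmb7, which Psmb10 replaces, had 9.71, 10.00 and 10.55 in the narrow-range EW16 mice and 11.45 to 11.82 in EW16 mice 4 to 8, against 11.90, 11.63, 11.83, 11.76 and 11.26 in EC16 mice. Its difference was −0.60 (SE 0.36, adjusted p = 0.285) with all arrays and −0.01 (SE 0.12, adjusted p = 0.964) without the narrow-range ones. In E mice, Psmb7 was thus low on the narrow-range arrays and Psmb10 on both kinds, whereas within DW16 both were lower on the narrow-range arrays than in mice 8 and 9, Psmb7 by a difference of −1.72 and Psmb10 of −0.77. In D mice at 16 weeks Psmb5 and Psmb6 differed by −0.31 (SE 0.19) and −0.54 (SE 0.23), with DW16 mice 8 and 9 at 11.86 and 12.11 for Psmb5 and 11.42 and 12.06 for Psmb6.

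Psmb9 and Tap1, which encodes a subunit of the peptide transporter of antigen presentation, lie head to head in the MHC region, and the 225 bases between their RefSeq starts are given here with those before the start of their neighbour Psmb8 because the immunoproteasome genes varied together. The first runs toward Psmb9 (GRCm38.p6, minus strand, chr17:34187331-34187555) and the second toward Psmb8 (plus strand, chr17:34197945-34198194), with capitals as above.
Psmb9: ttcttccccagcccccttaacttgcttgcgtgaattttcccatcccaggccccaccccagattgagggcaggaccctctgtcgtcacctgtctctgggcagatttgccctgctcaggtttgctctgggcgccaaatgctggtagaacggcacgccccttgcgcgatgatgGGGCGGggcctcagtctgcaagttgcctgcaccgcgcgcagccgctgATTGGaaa
Psmb8: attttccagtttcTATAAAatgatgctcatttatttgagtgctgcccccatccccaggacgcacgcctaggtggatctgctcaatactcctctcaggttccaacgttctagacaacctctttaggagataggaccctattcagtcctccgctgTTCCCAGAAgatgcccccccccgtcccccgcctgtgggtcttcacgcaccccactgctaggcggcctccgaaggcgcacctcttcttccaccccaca
The stretch between Psmb9 and Tap1 held 1 GC box, 50 to 55 bases before the Psmb9 start, and 1 CCAAT box on the opposite strand, and that of Psmb8 held TATAAA and 1 match of the STAT type, 89 to 97 bases before the start. Over the 35 arrays of the usual range, with each group centred on its mean, Psmb9 and Tap1 had a Pearson correlation of 0.64 (Spearman 0.63), Psmb9 and Psmb10 of 0.89 (0.85), Psmb8 and Psmb9 of 0.79 (0.76) and Psmb8 and Psmb10 of 0.74 (0.78), as a description over mice that share groups and array processing. Psmb10 lies on another chromosome (8), and its correlation with Tap1 was 0.69 (0.68), that of Psmb8 with Tap1 0.61 (0.63). The mean of the 3 genes had correlations of 0.69 with Tap1 and 0.56 with Tap2, of 0.58 with the adipocyte marker Cidec, of 0.58 with Krt19 and 0.58 with Msln, mesothelial markers, 0.56 with Lyz2 and 0.55 with Cd68, macrophage markers, and 0.54 with the lymphocyte marker Cd3d. These were the highest values of their lists. The lowest were −0.21 for Nlrc5 (antigen presentation), −0.59 for Lep (adipocyte) and 0.30 for Lrrn4 (mesothelial). For Csf1r (macrophage) and Cd8a (lymphocyte) they were 0.05 and −0.37. The part of these cell types in the shared variation was not tested. Tap1 differed by −0.87 between EW16 and EC16 (adjusted p = 0.0249) and by −0.84 between DW16 and DC16 (adjusted p = 0.0312), neither called.

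The activator subunit Psme1, part of the interferon-inducible ring that opens the core, had 9.68 to 10.67 with a median of 10.07 in EW16 mice, against 10.79, 10.68, 10.74, 10.68 and 10.52 in EC16 mice, again with only mouse 4 in the chow range (−0.60, SE 0.13, adjusted p = 0.0141, and −0.50, SE 0.13, adjusted p = 0.0185, without the narrow-range arrays). In DW16 it ran from 9.61 to 10.83, against 10.58, 10.51, 10.54, 10.36 and 10.63 in DC16 mice (−0.43, SE 0.17, adjusted p = 0.0774). It had 10.46 to 10.58 in DW8 and 10.44 to 10.65 in DC8 mice, a difference of 0.01. Psme4, a large activator known from DNA repair and spermatogenesis, differed by 0.20 between EW16 and EC16 (SE 0.16, adjusted p = 0.403) and by 0.40 without the narrow-range arrays (SE 0.12, adjusted p = 0.04). Over all arrays another of its probe sets (1452211_at) differed by −0.34 in EW16 relative to EC16 (adjusted p = 0.544) and by −0.98 in DW16 relative to DC16 (SE 0.25, adjusted p = 0.0164). Psme3, the nuclear activator, differed by −0.21 in EW16 relative to EC16 without the narrow-range arrays (SE 0.09, adjusted p = 0.148). With all arrays it differed by −0.25 in EW16 and −0.18 in DW16 relative to chow. Another of its probe sets (1418078_at), at a mean value of 6.91, differed by −1.31 (adjusted p = 0.0386) and −1.53 (adjusted p = 0.0170). The remaining one (1438509_at), at 4.44, differed by 0.06 and 0.22.

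Among the 7 assembly factors 6 means were lower in DW16 than in DC16, 6 in EW16 than in EC16 and 6 in DW8 than in DC8, and none was called. Psmg2, a chaperone of the alpha ring, had the smallest adjusted p of all members in DW16 relative to DC16 (−0.72, SE 0.17, adjusted p = 0.0121), followed among these factors by its partner Psmg1 (−0.58, SE 0.17, adjusted p = 0.0255) and by Psmd5, a chaperone of the base (−0.66, SE 0.22, adjusted p = 0.0412). In E mice the differences of Psmg1 and Psmg2 without the narrow-range arrays were −0.13 and −0.02. Psmg3, a chaperone of the same assembly step, had 7.94, 7.30, 7.73, 7.58 and 7.77 in EW16 mice 4 to 8, against 8.33, 8.25, 8.19, 8.39 and 7.97 in EC16 mice, which were separated by 7.94 against 7.97, as lower values were in 4.94% of all probe sets (−0.56, SE 0.12, adjusted p = 0.00922). With EW16 mice 1 to 3, at 8.13, 8.14 and 7.79, its difference was −0.43 (SE 0.14, adjusted p = 0.0635), and in DW8 relative to DC8 it was −0.48 (SE 0.13, adjusted p = 0.0516). Psmg4 and the inhibitor Psmf1 had EW16 mice that all lay below the EC16 mice, with −0.49 (SE 0.12, adjusted p = 0.0215) and −0.51 (SE 0.11, adjusted p = 0.0135). With Psmb1 they were the 3 of 49 members so separated, as were 3.39% of all probe sets. Psmd10, also known as the oncoprotein gankyrin, was the member with the largest positive difference in D mice (0.52 in DW16 relative to DC16, SE 0.20, adjusted p = 0.0730), which was 0.13 (SE 0.19, adjusted p = 0.922) without the narrow-range arrays.

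Psma8 and Psmb11 had mean values of 4.28 and 4.33 over all arrays, below the array medians, and no mouse exceeded 5.16 and 4.91. Of the genes that are no subunits, Psme3ip1 had lower values in all DW8 than in all DC8 mice (−0.23, SE 0.07, adjusted p = 0.0672), as did 1.16% of all probe sets, and was −0.47 in DW16 relative to DC16 (SE 0.13, adjusted p = 0.0199). No member's groups were separated in DW16 relative to DC16, where 1.96% of all probe sets were, with lower values in DW16.

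Between genotypes on the Western diet no member was called. At 8 weeks the means of 46 of 49 members, and of all 14 core and all 17 cap subunits, were lower in DW8 than in EW8, against 48.2% of all probe sets, with a median of −0.10 against 0.00 over all probe sets. Of the members 3 had an unadjusted p under 0.05 (4.13% of all probe sets). No probe set of the array was called there (0% in either direction). At 16 weeks 17 means were lower in DW16 than in EW16 (47.7% of all probe sets), the median was 0.10, and again no probe set was called (0%). Of the members 8 had an unadjusted p under 0.05 (14.6% of all), of which Psmd4 differed most (0.56, SE 0.18, adjusted p = 0.242). DW16 and EW16 hold 7 of 9 and 3 of 8 narrow-range arrays, and without those the median was 0.29 and 21 members had an unadjusted p under 0.05 (21.2% of all probe sets), 19 of them higher in DW16. Among D mice on chow, 15 means were lower in DC16 than in DC8 (50.8% of all probe sets), the median was 0.06, no probe set was called (0%), and 6 members had an unadjusted p under 0.05 (8.74% of all), among them Psmb10 (−0.31, SE 0.12, adjusted p = 0.455) and Psmd5 (0.34, SE 0.12, adjusted p = 0.411).

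Across the 35 arrays of the usual range, centred on group means, the median Pearson correlation was 0.52 over the 91 pairs of core subunits, 0.44 over the 136 pairs of cap subunits and 0.46 over the 238 pairs of a core with a cap subunit. It was 0.19 between immunoproteasome and core subunits and 0.25 between immunoproteasome and cap subunits, and near 0 between core subunits and all other probe sets (−0.01). Within the core and the cap, Psmb7, Psma2 and Psmc5 correlated most with the other 30 subunits (medians 0.59), and Psmb3 and Psmb2 least (0.09 and 0.15), followed by Psmd11 (0.23). These are descriptions over mice that share groups and array processing, with no test.

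Genes outside the naming pattern that serve the proteasome were taken from fixed lists. Of 7 measured partner subunits and assembly factors, Uchl5, a deubiquitinase that associates with the cap, was called in EW16 relative to EC16 (−0.72, adjusted p = 0.00296). Of all probe sets 2.39% were called as lower there. It lay 0.59 lower in DW16 than in DC16 (−0.59, adjusted p = 0.0270), while Usp14, another associated deubiquitinase, differed by 0.06 and 0.38. The core assembly chaperone Pomp differed by −0.49 in E and 0.09 in D mice, and Ecpas, which tethers and disassembles proteasomes, by 0.58 and 0.17. The transcription factors of proteasome genes had no call: NRF1 (Nfe2l1) differed by −0.60 in EW16 and −0.60 in DW16 mice relative to chow, and NRF2 (Nfe2l2) by −0.35 and −1.04 (adjusted p = 0.0216 for the last). All 8 shuttle and unfolding factors had lower means in both 16-week comparisons, with medians of −0.27 in EW16 and −0.71 in DW16 and no call, among them the unfoldase Vcp with −0.88 (adjusted p = 0.0436) and −1.04 (adjusted p = 0.0221). Of 9 antigen presentation genes 7 and 9 had lower means, with medians of −0.46 and −0.66 and no call. At 8 weeks the medians of these 3 lists with 7 or more genes were 0.09, 0.04 and 0.05. Of the probe sets at or above the members' median level, 78.1% had lower means in EW16 and 83.8% in DW16. Their medians were −0.29 and −0.46. Values of the listed genes without the narrow-range arrays are not given here, so diet and narrow range are not separated for them.

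Means of cell type markers also differed between the diet groups at 16 weeks, where the narrow-range arrays are. Endothelial and adipocyte markers had mean levels of 7.59 to 7.95 and 10.96 to 11.65 in the narrow-range EW16 mice 1 to 3. In EW16 mice 4 to 8 they had 8.97 to 9.36 and 12.26 to 12.60. The endothelial mean was 7.44 to 7.98 in DW16 mice 1 to 7, and 9.19 and 8.90 in mice 8 and 9. The counts that follow are over all arrays. Mesothelial markers had lower means in EW16 than in EC16 in 4 of 4 genes, 2 of them called, with a mean level of 5.89 to 7.11 in EW16 and 7.20 to 8.30 in EC16 mice, and 4 of 4 lower with 1 called in DW16 relative to DC16 (5.45 to 7.82 and 6.22 to 7.83). Macrophage markers were lower in 5 of 8 in EW16 (mean level 8.67 to 10.37, against 9.33 to 9.99 in EC16) and in 7 of 8 in DW16, 1 of them called (8.51 to 9.74, against 8.89 to 9.89 in DC16), endothelial markers in 6 of 6 in both, 1 of them called in DW16 (EW16 7.59 to 9.36 and EC16 8.87 to 9.19, DW16 7.44 to 9.19 and DC16 8.71 to 9.21), and adipocyte markers in 6 of 7 in both (EW16 10.96 to 12.60 and EC16 12.23 to 12.55, DW16 11.18 to 12.76 and DC16 12.34 to 12.80). Lymphocyte markers had lower means in 2 of 9 in EW16 (mean level 6.06 to 6.28, against 5.96 to 6.21 in EC16) and in 3 of 9 in DW16 (5.80 to 6.34, against 5.88 to 6.18 in DC16), where 1, Cd3e, was called with a higher mean in DW16. Dendritic markers were lower in 1 of 4 in EW16 (5.58 to 5.76, against 5.57 to 5.86 in EC16) and 2 of 4 in DW16 (5.40 to 5.78, against 5.43 to 5.98 in DC16). Fibroblast markers were lower in 4 of 5 in EW16 (10.21 to 11.24, against 10.95 to 11.72 in EC16) and 2 of 5 in DW16 (10.10 to 11.16, against 10.57 to 11.26 in DC16), and none of either list was called. The part of all these markers in the values of the proteasome genes was not tested.

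Other probe sets of the same genes did not always follow the one used. Counted over all 103 probe sets, 0 were called in DW8, 3 in DW16 and 4 in EW16 relative to chow, all lower. Among all probe sets of the array 1.08%, 3.43% and 2.66% were called in either direction. As lower, 2.63% were called in DW16 and 2.39% in EW16. A second probe set of Psmc4 (1416291_at) was called in both 16-week comparisons (−1.22, SE 0.26, adjusted p = 0.00951 in DW16; −1.32, SE 0.24, adjusted p = 0.00531 in EW16), one of Psmd6 (1423697_at) in DW16 (−1.37, SE 0.30, adjusted p = 0.00973), where the one used differed by −0.17, one of Psma3 (1441707_at) in DW16 (−0.68, SE 0.14, adjusted p = 0.00852) at a mean value of 5.45, and one of Psmd11 (1429370_a_at) in EW16 (−1.12, SE 0.22, adjusted p = 0.00783), where the one used differed by −0.34. The other probe sets of Psmb1, with mean values of 6.67 and 6.05, differed by 0.21 and −0.01 in EW16. Psma4 and Psmb2 each have 1 probe set. For Psma6 the one used differed by 0.10 in DW16 and the next (1416506_at) by −0.80 (SE 0.26, adjusted p = 0.0435).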

How the data were processed

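Adipocyte RNA of each mouse was hybridized by the authors to an Affymetrix MG430-2.0 array, scanned with global scaling and normalized with RMA express. The deposited values are log2 RMA values of 45037 probe sets. The version is not given in the sources used here. The study's discussion speaks of a quantile normalization that took out mean differences between conditions, while the deposited arrays still differ in their 95th percentile (10.14 to 11.14), and which arrays were normalized together is not given. All columns were used (0 left out), and 0 arrays held identical values. Groups are those of the labels. Each array is a mouse of its own, and their number limits the precision.

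The groups of each comparison were fitted with limma 3.58.1 (lmFit and eBayes) in R 4.3.3, with no filter on level. P-values were adjusted after Benjamini-Hochberg over every probe set, and calls were made under 0.01. Differences between diet effects were contrasts over 4 groups. SAM, used by the study beside limma, rests on label permutations and was not run here. A single gene symbol is annotated to 34945 probe sets, more than 1 to 932 and none to 9160. Promoters and chromosomes come from RefSeq (GRCm38.p6). Of 38 pathway genes listed 28 were measured by a probe set of their own, and of 45 markers 43. Plots were made with Matplotlib 3.10.9 in Python 3.11.15. The steps were tested on simulated data.

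The members, the lists and the rule for named genes were chosen with earlier results of these data known. Values per mouse are given for Psmb5 to Psmb10, Psme1 and called members. Others were added after their values were seen: Psmb2, Psmb3, Psmg3, Psmc4, Psmc5 and the members named with a single difference. Alternatives were 1 spread over all 7 groups, trend and robust eBayes, array weights, quantile normalization again, centring on the median, the array SD as a covariate, no narrow-range arrays, high-level probe sets only, an adjusted p of 0.05, a 2-fold minimum, every probe set, a replicate block, and the omission of each mouse. Narrow-range arrays as a block were added later, and DW16 with EW16 within them.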

Additional observations from a re-analysis of the deposited data

Results flagged for a closer look

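Of 63 sets of values tested (9 genes in 7 groups), 9 had 1 mouse that lay far from the others of its group by Dixon's criterion, and chance gives about 1 in 20. EW16 mouse 4 had 11.5866 for Psma4 and 10.1379 for Psmb10, above all other EW16 mice (at most 10.43 and 9.45). EC16 mouse 2 was high for Psmb9 (9.9973, the next 9.48) and Psmb10 (10.3716, the next 9.93). DC16 mouse 4 was low for Psmb7 (11.3495, the next 11.79) and Psmb10 (9.25654, the next 9.69). DW8 mouse 3 was low for Psmb7 (11.465, the next 11.66). DC8 mouse 3 was low for Psmb5 (11.1152, the next 11.63), and DC8 mouse 5 was high for Psmb8 (9.94133, the next 9.47).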

How the results depend on the processing

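The count of called members depended on the processing, as did that of all probe sets, whose share called is given in brackets. The sign was followed for 9 genes only (Psma4, Psmb1, Psmb5 to Psmb10 and Psme1). No called difference of these changed sign. With array weights it was 1 (2.87%) in DW8 relative to DC8, 18 (30.5%) in DW16 relative to DC16, 24 (16.6%) in EW16 relative to EC16, 4 (14.2%) in DW16 relative to EW16, 1 (8.71%) for the diet difference between D and E mice and 11 (19.7%) for that between 16 and 8 weeks, against 0, 0, 2, 0, 0 and 0. A common spread for the 7 groups gave 12 (17.1%) in DW16 and 9 (7.29%) in EW16. At an adjusted p of 0.05 it was 1 (4.8%) in DW8, 10 (21.3%) in DW16, 13 (9.26%) in EW16 and 1 (6.46%) for the difference between 16 and 8 weeks. Centring on the median gave 1 (4.45%) in DW16 and 3 (3.18%) in EW16, and high-level probe sets alone 4 (11.4%) and 3 (6.15%). With every probe set of a member counted it was 3 (3.43%) and 4 (2.66%). In EW16, trend and robust eBayes (1.84%), the array SD as a covariate (2.7%) and a 2-fold minimum (0.948%) each gave 1. The causes were not tested.

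Replicate numbers did not pair the mice: the correlation of same-numbered mice ran from −0.44 to 0.53, and in no comparison was every pair over 0.1. With the replicate block 13 members were called in DW16 (17.3% of all probe sets), 0 in EW16 (0%) and 10 for the difference between 16 and 8 weeks (12.4%).

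With 1 mouse left out the count ran from 0 to 1 in DW8 (1, 2.59%, without DC8 mouse 1), 0 to 6 in DW16 (6, 11.6%, without DW16 mouse 9), 0 to 11 in EW16 (11, 7.05%, without EW16 mouse 4) and 0 to 2 for the difference between 16 and 8 weeks (2 without DW16 mouse 8, 6.74%, or 9, 3.53%). With quantile normalization again the members' median was 0.03 in DW16 and −0.10 in EW16, against −0.27 and −0.34, so that the direction in DW16 turned.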
